A study of Homo sapiens with 34 samples.

Results

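The transcriptome of human cells treated with 6-aminonicotinamide (6AN) was compared with that of control cells over 1 circadian cycle. The comparison used the 12 RNA-seq libraries labelled 0 to 20 hr of the 34 samples in the series, that is 6 libraries with 6AN and 6 with the solvent DMSO, taken every 4 hr and paired by labelled time. Genes were the loci of the authors' merged annotation with a mean FPKM (fragments scaled to transcript length and library size) of at least 1 over these 12 libraries, 13844 of the 28690 loci in the tables. All libraries came from *Bmal1*:*luc* U2OS cells, derived from a human osteosarcoma and fitted with luciferase under control of the *Bmal1* promoter. The glucocorticoid dexamethasone had been used to set the clocks of all cells to a common phase, and the DMEM medium then held 6AN at 5 mM in one arm and DMSO alone in the other. Hours are those of the labels, and the time axes of the study's plots begin a day later, so that labelled 0 hr may lie about a day after synchronization. There was 1 library per condition and time point, so the 6 time pairs are the replicates, every p-value measures the spread over time points of 1 experiment, and no value covers the variation between cultures.

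The pentose phosphate pathway branches from glycolysis at glucose 6-phosphate and reduces NADP+ to NADPH in its oxidative steps. NADPH feeds fatty acid and cholesterol synthesis and keeps glutathione, thioredoxin and peroxiredoxins reduced. Cells convert 6AN into an analog of NADP+ that inhibits the oxidative steps. The circadian clock is a loop in which BMAL1 (gene *ARNTL*) and CLOCK activate PER, CRY and REV-ERB genes, whose proteins in turn repress BMAL1 and CLOCK or their genes.

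Levels are given as FPKM scaled to a common median, and differences as log2(FPKM + 1) with 6AN minus DMSO, which understates the change of low genes. Tests were made with limma, with time point as a block, and p-values were adjusted by Benjamini-Hochberg over the 13844 loci. Loci with an adjusted p up to 0.05 were called. Between 2 libraries of the same condition Pearson's r over the loci tested was 0.882 to 0.913 in DMSO and 0.871 to 0.899 in 6AN. Between conditions it was 0.853 to 0.890. These loci include 625 small RNA loci, whose differences between conditions had a median SD over time pairs of 3.32, beside 0.173 for the others. The value of r without small RNA loci was not computed. These ranges therefore cannot be set beside correlations over another choice of transcripts. Read depth could be recovered only relative to the DMSO library at 0 hr, and ranged from 0.757 to 1.59 of it in DMSO and from 0.787 to 1.67 in 6AN. Of 12 osteoblast and mesenchymal markers, 9 were above the filter, among them *RUNX2*, *SPARC* and *VIM*, whereas *SP7*, *IBSP* and *COL1A2* were at or near 0. Of 11 markers of other cell types, only *CD68* and the *INS* locus, which is merged with *IGF2*, were above it; both were called higher, their summed FPKM ranged from 18.5 to 22.9 in DMSO and from 22.1 to 29.3 in 6AN, *HBB* was at 0 throughout, and their part in the results was not tested.

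With 6AN, 3004 loci rose (21.7% of those tested) and 3805 fell (27.5%). In all, 49.2% were called, mostly with modest changes: the median absolute log2 difference of the called loci was 0.38, and 140 rises and 208 falls were 1 or more on the log2 scale. The median over all loci tested was -0.02, and the middle of the distribution lay between -0.26 and 0.20. The 6 values with 6AN lay above all 6 with DMSO for 1750 loci (12.6%) and below all 6 for 2196 (15.9%). In these bulk samples fewer cells of a state and less RNA per cell cannot be told apart, and the 2 tables were normalized separately by the authors, so that every difference was set across them.

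**Figure D1:**
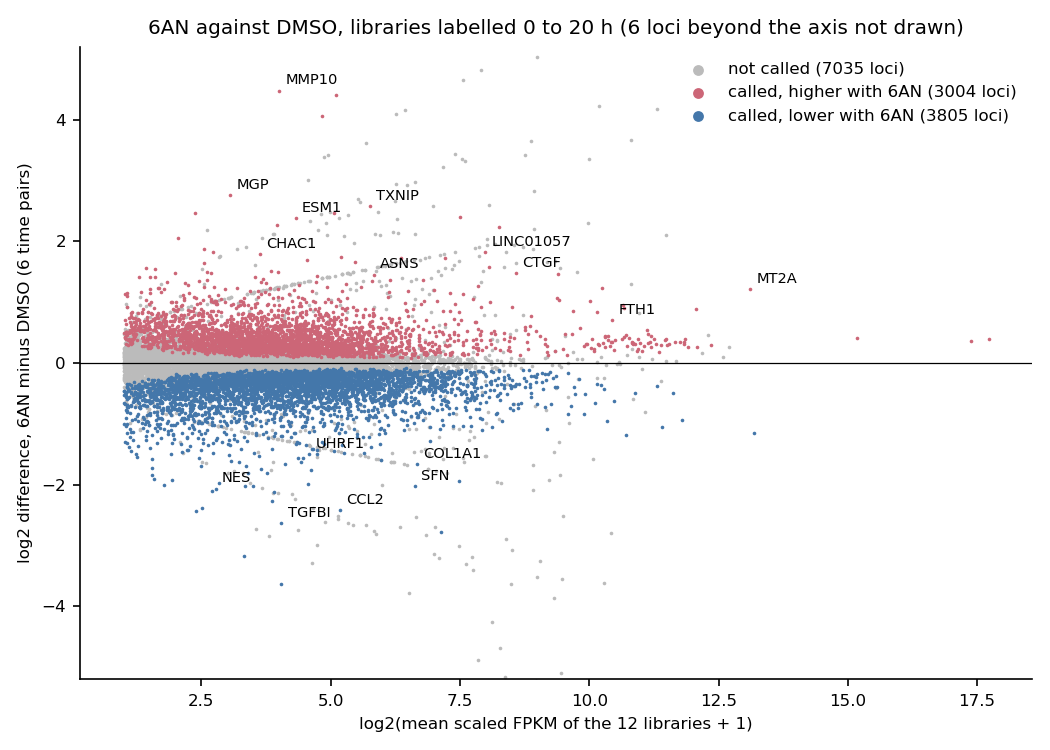
Log2 difference, 6AN minus DMSO, over the 6 time pairs (vertical axis) against log2 of the mean scaled FPKM + 1 of the 12 libraries (horizontal axis). Each point is 1 locus: 3004 loci called higher are red, 3805 called lower are blue and 7035 not called are grey, and *MMP10* stands at 4.48 and *TGFBI* at -2.64.

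The largest rises included several secreted and matrix-remodelling genes. Small RNA loci and loci of several symbols were left out of the rankings of rises and falls. *MMP10*, which encodes the protease stromelysin 2 (chr11:102770502-102780628, hg38), was between 0 and 0.698 FPKM in DMSO with a median of 0.473, and between 25.3 and 39.8 with a median of 28.3 in 6AN, a log2 difference of 4.48 ± 0.13 (SE, n = 6 time pairs; limma, adjusted p = 1.08e-05). The collagenase gene *MMP1* rose from 0.288, 0.597 and 0.811 (lowest, median and highest) in DMSO to 6.71, 7.52 and 9.27 in 6AN (2.47 ± 0.11). The lowest 6AN library was thus far above the highest DMSO library for both proteases. *MGP*, an inhibitor of calcification, rose by 2.76 ± 0.17 and *ESM1*, a secreted proteoglycan, by 2.38 ± 0.11. Among the 12 largest rises, the others were *LINC00520* (2.27), *SPOCD1* (2.06), *LINC01057* (1.83), *DLGAP1-AS2* (1.75), *ESRG* (1.73) and 3 genes described below, *TXNIP*, *ARRDC4* and *CHAC1*. The loci of *ESRG* and *DLGAP1-AS2* are long in the merged annotation and may hold reads of neighbouring transcripts.

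The largest falls included *TGFBI*, a matrix protein induced by TGF-beta (chr5:136028895-136063818). Its levels were 20.7, 26.1 and 36.5 in DMSO and 2.63, 3.29 and 5.86 in 6AN, with a log2 difference of -2.64 ± 0.07 (limma, adjusted p = 6.06e-06), and the groups did not overlap. The monocyte chemokine gene *CCL2* was 40.5, 62.7 and 78.6 in DMSO and 8.37, 10.5 and 11.5 in 6AN (-2.42 ± 0.11). *SFN*, the 14-3-3 sigma gene, fell by 2.02 ± 0.08 on the log2 scale, *SOCS3*, an inhibitor of cytokine signalling, by 2.12, *PTP4A3*, a phosphatase, by 2.27, *NES*, the intermediate filament nestin, by 2.07 and *SLC2A12*, a glucose transporter, by 2.02. Values of the other 5 were -2.44 for *CCL24*, -2.38 for *KRT75*, -2.11 for *KLRC2*, -2.03 for *ADGRG1* and -2.78 for *SNAR-E*. *SNAR-E* and *KLRC2* have near-identical copies that share reads, *CCL24* was listed at 0 in some 6AN libraries, and *SNAR-E* overlapped between the groups, with 122 to 387 FPKM in DMSO and 0 to 179 in 6AN. The call of *SNAR-E* was lost with a pseudocount of 0.1, with robust variances and without the pair at 4, 8 or 12 hr (adjusted p of 0.0532 to 0.0857), and its difference was -1.85 without the pair at 16 hr.

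Genes of the extracellular matrix and targets of TGF-beta or the coactivator YAP moved in both directions. Of 20 tested, 9 rose and 9 fell, with a median of 0.22. The connective tissue growth factor gene *CTGF* (chr6:131948177-131951378) was 180, 198 and 241 in DMSO and 511, 569 and 602 in 6AN, a difference of 1.48 ± 0.06 (limma, adjusted p = 1.64e-05). *ANKRD1*, a muscle ankyrin repeat protein whose gene is a YAP target, was 111, 123 and 166 in DMSO and 318, 381 and 551 in 6AN (1.58 ± 0.12). Neither gene overlapped between groups. *TIMP1*, an inhibitor of matrix proteases, rose by 0.89, whereas fibronectin (*FN1*) fell by 0.48 on the log2 scale. TEAD factors, the DNA-binding partners of YAP, recognise GGAATG. Here and for the motifs below, the 250 bases before the RefSeq start were searched (GRCh38.p14). Of 14 members with such a promoter, 5 held these letters on either strand, beside 14.3% of all 27305 symbols. Of the 5 genes 3 rose and 2 fell. Shown because they had the largest differences among those 5, both of them rises, with the matches in capitals, are the window of *ANKRD1*, chr10:90921178-90921337 (minus strand), and that of *CTGF*, listed there as *CCN2*, chr6:131951430-131951573 (minus strand).
ANKRD1: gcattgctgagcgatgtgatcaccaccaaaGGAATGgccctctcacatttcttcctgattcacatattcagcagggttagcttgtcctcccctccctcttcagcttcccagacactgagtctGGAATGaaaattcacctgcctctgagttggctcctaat
CTGF: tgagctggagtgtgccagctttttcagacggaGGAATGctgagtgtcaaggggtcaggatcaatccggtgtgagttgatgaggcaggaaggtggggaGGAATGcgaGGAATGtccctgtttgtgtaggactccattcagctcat

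Of 22 collagen genes tested, 15 fell and 4 rose, with a median of -0.43. *COL1A1*, the main chain of type I collagen (chr17:50184096-50201639), was 122, 158 and 168 in DMSO and 32.5, 48.2 and 72.7 in 6AN, a difference of -1.66 ± 0.09 (limma, adjusted p = 3.26e-05). The highest 6AN library, at 0 hr, was below the lowest DMSO library, at 20 hr. *COL8A1* and *COL5A2* each fell by 1.08 on the log2 scale, and *COL4A2*, a basement membrane chain, by 0.34. The 4 that rose were *COL11A2* (0.94), *COL7A1* (0.33), *COL27A1* (0.24) and *COL6A2* (0.14), and without the pair at 12 hr 2 rises were called. Among 7 osteoblast genes, *TNFRSF11B*, which encodes osteoprotegerin (-1.99), and *ALPL*, the alkaline phosphatase (-0.62), fell. *SPP1*, osteopontin (0.87), and *MSX2* (0.51) rose. Rises and falls were each 28.6% of the 7, beside 21.7% and 27.5% over all loci. *RUNX2*, the master regulator of bone, was 12.04, 12.5 and 13.3 in DMSO and 11.5, 12.9 and 14.4 in 6AN.

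**Figure D2:**
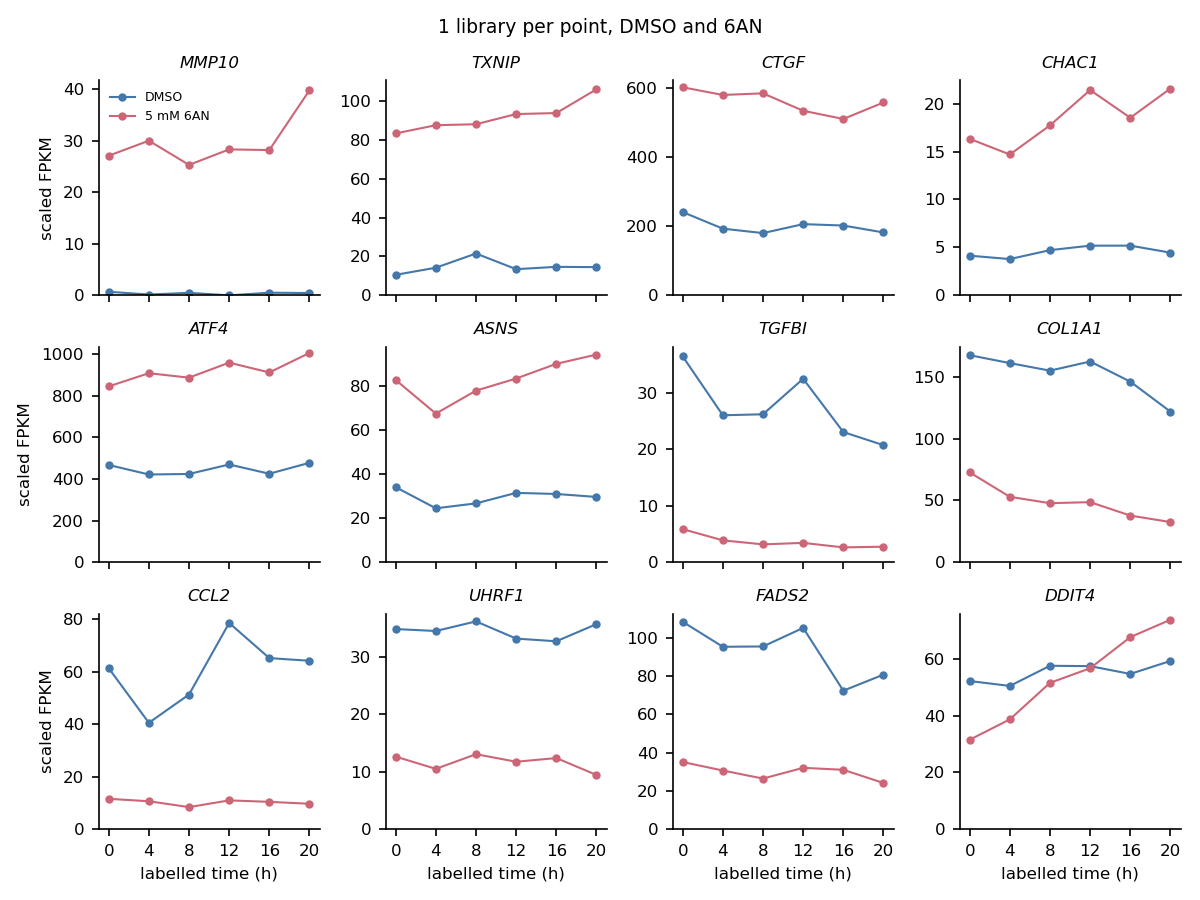
Scaled FPKM (vertical axes) against labelled time in hours (horizontal axes) for 12 genes; each point is 1 library, with DMSO in blue and 5 mM 6AN in red. In 11 panels the curves stay apart at all 6 time points, and in that of *DDIT4* they cross as 6AN goes from 31.5 to 73.9.

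*TXNIP*, which binds and inhibits thioredoxin and limits glucose uptake (chr1:145992426-145996631), was 10.6, 14.4 and 21.5 in DMSO and 83.2, 90.6 and 106 in 6AN, a difference of 2.58 ± 0.11 (limma, adjusted p = 1.66e-05). Its paralog *ARRDC4*, which like *TXNIP* responds to sugar phosphates through the MondoA factor, was 1.22, 2.01 and 2.63 in DMSO and 8.54, 9.20 and 10.6 in 6AN (1.83 ± 0.08). Both arrestin genes were higher at every time point, with no overlap. Of 22 genes of glycolysis, 12 fell and 4 rose, with a median of -0.20. *TPI1* (-0.95), *LDHA* (-0.84), which reduces pyruvate to lactate, *PGAM1* (-0.77) and the abundant *GAPDH* (-0.37) and *PKM* (-0.35) fell. Hexokinase 2 (*HK2*), the entry enzyme, was 6.38, 6.81 and 8.17 in DMSO and 10.8, 13.2 and 14.8 in 6AN (0.81 ± 0.06), and *SLC2A3* (0.52), *ENO2* (0.33) and *PFKL* (0.27) also rose. In 11 hypoxia genes, 5 rose, among them *VEGFA* (0.91), *NDRG1* (0.75) and *BNIP3* (0.49), and 3 fell, of which *CA12* had -0.46.

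Genes of the pentose phosphate pathway showed small differences in mRNA. *PGD*, which encodes 6-phosphogluconate dehydrogenase (chr1:10398992-10420511), was 92.3, 105 and 114 in DMSO and 120, 133 and 140 in 6AN, a difference of 0.33 ± 0.05 (limma, adjusted p = 0.00167). The lowest 6AN library was above the highest DMSO library. In all, 4 of 8 pathway genes rose and 2 fell, with a median of 0.12; *H6PD* (0.32), *PGLS* (0.26) and the transketolase *TKT* (0.17) rose, the transaldolase *TALDO1* (-0.28) and *RPE* (-0.19) fell, and *RPIA* had 0.08.

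Other enzymes that make NADPH were divided, with 4 of 11 higher and 5 lower and a median of -0.13, which was 0.02 without the pair at 16 hr. The mitochondrial folate enzyme *MTHFD2* was 68.9, 72.4 and 78.3 in DMSO and 143, 145 and 162 in 6AN (1.01 ± 0.04, limma, adjusted p = 1.32e-05), and *ALDH1L2* (0.63), *ALDH1L1* (0.59) and the mitochondrial NAD kinase *NADK2* (0.36) also rose. The cytosolic folate enzyme *MTHFD1* (-0.57), isocitrate dehydrogenase *IDH1* (-0.53), the transhydrogenase *NNT* (-0.38), malic enzyme *ME1* (-0.33) and *NADK* (-0.19) fell. *IDH2* (-0.13) and *MTHFD2L* (0.25) were not called. Of 17 genes of NAD salvage and use, 5 rose (29.4%) and 3 fell (17.6%), beside 21.7% and 27.5% over all loci: *SIRT1* (0.61) and *SIRT2* (0.55), NAD-dependent deacetylases, and *NNMT* (0.42), *NMNAT2* (0.26) and *NAMPT* (0.19) rose, whereas *QPRT*, of NAD synthesis from tryptophan (-1.02), *PARP1* (-0.50) and *PARP2* (-0.49) fell.

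NRF2 (gene *NFE2L2*) is the redox-sensitive activator of antioxidant genes. Of 18 of its targets, 8 rose and 5 fell, with 3 falls called without the pair at 8 hr, with a mean of at least 5 FPKM or with no filter, and the median of -0.01 was 0.02 with upper quartile or ratio scaling. Thioredoxin reductase 1 (*TXNRD1*) was 61.0, 69.8 and 76.8 in DMSO and 80.5, 90.6 and 108 in 6AN (0.42 ± 0.04), and glutathione reductase (*GSR*) was 24.9, 25.6 and 29.2 in DMSO and 32.4, 33.8 and 41.5 in 6AN (0.39 ± 0.05). Neither reductase overlapped between groups. The cystine transporter *SLC7A11* (1.24), *OSGIN1* (1.14), sulfiredoxin *SRXN1* (0.90), *GCLC*, the catalytic subunit of glutathione synthesis (0.78), the ferritin heavy chain *FTH1* (0.71) and *SLC48A1* (0.25) also rose. In contrast *NQO1*, the classical quinone reductase target (chr16:69709401-69726668), was 37.6, 44.3 and 59.6 in DMSO and 17.3, 20.3 and 27.2 in 6AN, a difference of -1.07 ± 0.06 (limma, adjusted p = 2.82e-05) with no overlap. The other falls were *PIR* (-0.74), *ME1* (-0.33), *TXN* (-0.28) and *PRDX1* (-0.15), whose call was lost in 11 of 19 alternatives. Heme oxygenase 1 (*HMOX1*) was 27.6, 28.5 and 31.1 in DMSO and 23.99, 25.99 and 33.5 in 6AN (-0.11 ± 0.06, limma, adjusted p = 0.228), and without the pair at 20 hr it was called lower (-0.17, adjusted p = 0.0317). *GCLM* (-0.11), *FTL* (-0.09), *EPHX1* (-0.09) and *ABCC3* (0.06) were not called.

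*NFE2L2* itself was 30.5, 31.9 and 34.9 in DMSO and 32.7, 38.2 and 40.02 in 6AN (0.20, limma, adjusted p = 0.00314), so its groups overlapped. Of 8 NRF2 regulators 6 rose, with the small MAF partners *MAFK* (1.25), *MAFF* (0.75) and *MAFG* (0.69) and the repressor *BACH1* (0.40) ahead of *KEAP1* (0.18), and *CUL3* had -0.11, called lower in the analysis as described but not in 12 of 19 alternatives (adjusted p of 0.0508 to 0.184). Among 25 peroxide, thioredoxin and glutathione enzymes, which share members with the targets above, 7 rose and 12 fell, with a median of -0.15. *GPX4*, which reduces lipid peroxides, rose by 0.55, whereas superoxide dismutase *SOD1* fell by 0.30 on the log2 scale. In 13 acetyltransferase and corepressor genes, 7 rose and 2 fell, with a median of 0.15; *CREBBP* (0.69), *KAT5* (0.56) and *NCOA1* (0.34) rose and *HDAC3* fell (-0.32). *EP300*, the P300 acetyltransferase, was 22.6, 23.2 and 24.1 in DMSO and 25.96, 27.4 and 29.8 in 6AN (0.23, limma, adjusted p = 0.00152), which is small but without overlap.

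The integrated stress response, in which phosphorylated eIF2alpha favours translation of ATF4, was higher in 13 of 16 genes and lower in 0, with a median of 0.94. *ATF4* (chr22:39520559-39522686) was 422, 446 and 478 in DMSO and 845, 910 and 1006 in 6AN, a difference of 1.04 ± 0.04 (limma, adjusted p = 1.47e-05). *CHAC1*, which degrades glutathione (chr15:40953438-40956519), was 3.79, 4.59 and 5.19 in DMSO and 14.7, 18.1 and 21.6 in 6AN (1.79 ± 0.06). The pseudokinase *TRIB3* was 8.48, 9.96 and 11.02 in DMSO and 27.8, 33.2 and 45.7 in 6AN (1.70 ± 0.14). None of the 3 overlapped between groups. *DDIT3*, the CHOP factor (1.67), *NUPR1* (1.36), the phosphatase subunit *PPP1R15A* (1.36), *ATF3* (1.08), *VLDLR* (0.95), *CEBPG* (0.94), *GDF15* (0.73), *CEBPB* (0.64), *SESN2* (0.45) and *EIF4EBP1* (0.37) also rose. Not called were *FGF21* (0.73), *DDIT4* (-0.11) and *ATF5* (0.79, adjusted p = 0.64), whose locus holds *MIR4751* and ranged from 17.2 to 890 in DMSO and from 21.2 to 1094 in 6AN.

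All 12 amino acid transporters tested rose, by 0.22 to 1.28, with a median of 0.61. *SLC7A11* was 3.74, 4.49 and 4.92 in DMSO and 10.02, 11.6 and 13.9 in 6AN (1.24 ± 0.06, limma, adjusted p = 1.79e-05), and *SLC1A4* (1.28), *SLC3A2* (1.13) and *SLC7A2* (1.01) rose by similar amounts. Of 15 genes of amino acid synthesis, 9 rose and *ALDH18A1* (-0.23) and *GOT2* (-0.20) fell, with a median of 0.37. Asparagine synthetase (*ASNS*, chr7:97852117-97872542) was 24.4, 30.2 and 34.0 in DMSO and 67.3, 82.9 and 94.1 in 6AN (1.45 ± 0.05, limma, adjusted p = 1.3e-05), with no overlap, and the serine pathway genes *PSAT1* (1.25) and *PHGDH* (0.85) and the cysteine gene *CTH* (1.22) rose. Of 20 cytosolic aminoacyl-tRNA synthetases 10 rose, led by *AARS* (0.77), *CARS* (0.67), *YARS* (0.66) and *SARS* (0.64), and *VARS* (-0.38), *FARSB* (-0.32), *DARS* (-0.20) and *RARS* (-0.15) fell, of which *DARS* lost its call in 8 of 19 alternatives.

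ATF4 with C/EBP partners binds the C/EBP-ATF response element. Its letters are TGATGNAA, also searched as the reverse complement. They were in 8 of the 34 RefSeq promoters found for the stress response, amino acid synthesis and transporter lists, beside 3.89% of all symbols. In these lists 13 of 16, 9 of 15 and 12 of 12 genes rose, with or without the letters. Of the 8 genes with them 7 rose and 0 fell. The windows of the 2 with the largest rise are shown with the match in capitals, for *CHAC1* at chr15:40953230-40953301 (plus strand) and for *ASNS* at chr7:97872437-97872508 (minus strand). A match is a description of the letters and was not tested as a site.
CHAC1: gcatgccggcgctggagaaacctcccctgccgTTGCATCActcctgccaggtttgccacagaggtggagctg
ASNS: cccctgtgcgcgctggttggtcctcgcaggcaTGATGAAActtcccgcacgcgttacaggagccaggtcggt

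All 5 metallothionein genes above the filter rose, with a median of 1.22. *MT2A*, which encodes a zinc-binding and radical-scavenging protein, was among the most abundant mRNAs, at 4689, 5291 and 5925 in DMSO and 9710, 12143 and 15097 in 6AN (1.22 ± 0.08, limma, adjusted p = 4.53e-05). *MT1G* (1.48), *MT1E* (1.24), *MT1X* (1.08) and *MT1F* (0.89) followed, although the genes of this cluster are similar enough to share reads. Of 11 glucocorticoid-responsive genes, 7 rose, with *DUSP1* (1.19), *TSC22D3* (0.93) and *SGK1* (0.74) among them, in cultures that had both received dexamethasone. *FKBP5* fell (-0.24), but its locus carries more than 1 symbol, and 0 were called lower with such loci left out. *MYC* was 33.7, 41.8 and 49.2 in DMSO and 91.3, 95.3 and 103 in 6AN (1.17 ± 0.07), and of 13 immediate early genes *NR4A1* (0.77), *EGR1* (0.68), *KLF6* (0.57) and *JUND* (0.32) also rose while *FOSL2* (-0.63) and *IER2* (-0.17) fell, the latter with its call lost in 7 of 19 alternatives. In 7 inflammatory genes *IL11* (0.60) and *NFKBIA* (0.23) rose and *CCL2* and *LIF* (-1.14) fell. Rises and falls were each 28.6%, beside 21.7% and 27.5% over all loci. Of 11 interferon-responsive genes 8 fell and 0 rose, with *OAS3* and *BST2* each at -0.79. Among 12 autophagy genes 6 rose, with the receptors *SQSTM1* (0.56) and *OPTN* (0.41) ahead, and *GABARAP* had -0.11, called lower except with upper quartile or ratio scaling, no filter or no replicate block (adjusted p of 0.0555 to 0.125).

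**Figure D3:**
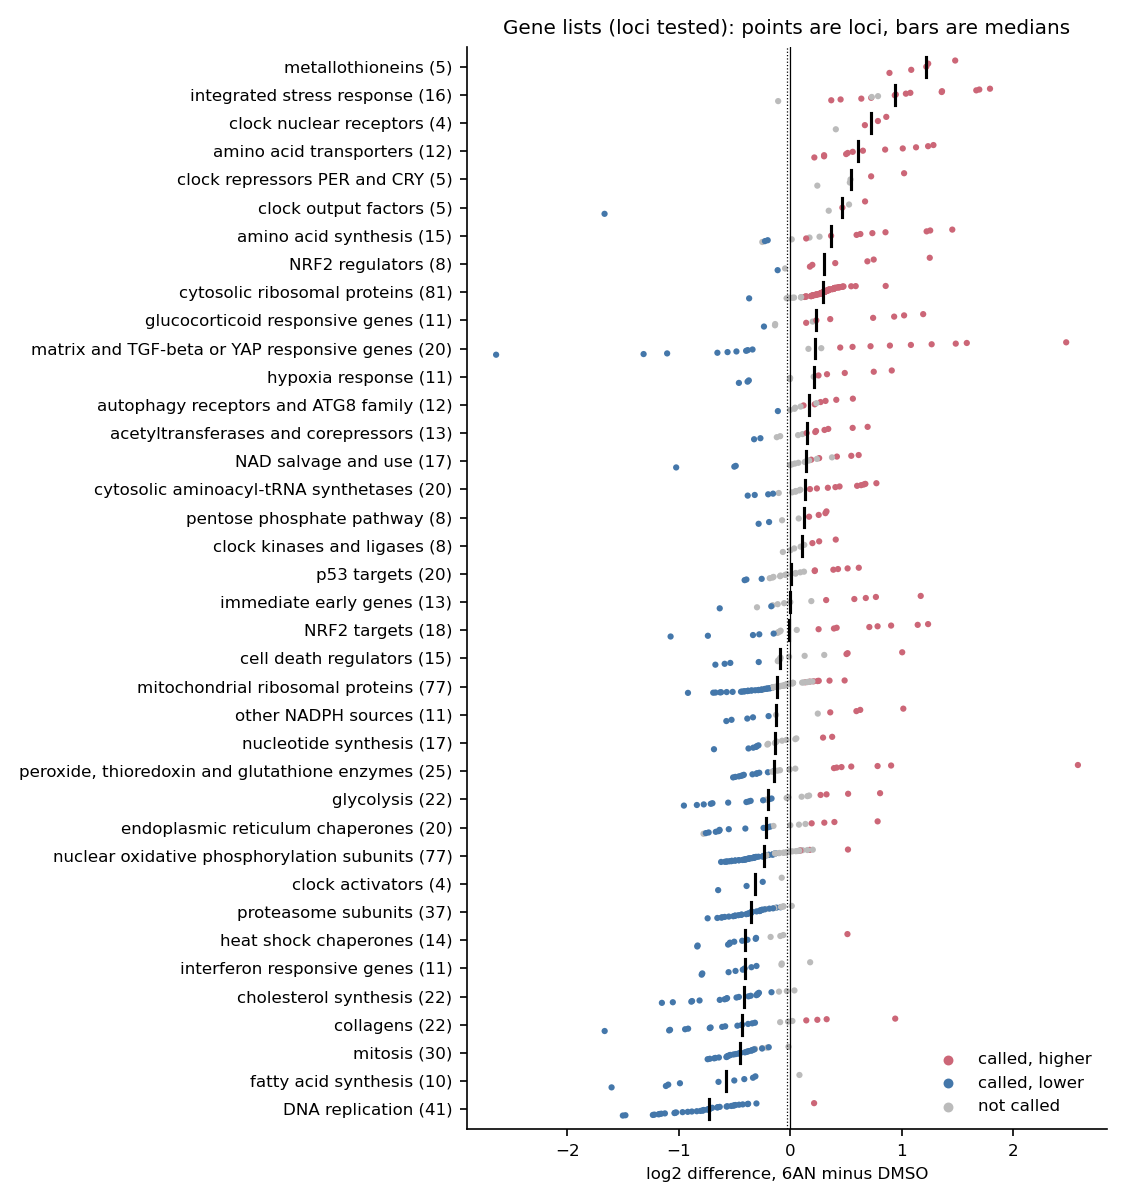
Log2 difference, 6AN minus DMSO (horizontal axis), of the loci of each gene list (rows, with the number of loci tested); each point is 1 locus, coloured by its call, bars are list medians and the dotted line is the median over all loci, -0.02. Metallothioneins have the highest median (1.22) and DNA replication the lowest (-0.73).

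Among the clock activators, 3 of 4 were called lower and 0 higher. *CLOCK* was 7.43, 7.78 and 9.02 in DMSO and 5.17, 5.95 and 6.34 in 6AN (-0.39 ± 0.07, limma, adjusted p = 0.00346). Its paralog *NPAS2* was 17.96, 24.7 and 34.98 in DMSO and 14.1, 16.9 and 17.2 in 6AN (-0.65 ± 0.16), and *ARNTL2* had -0.25, a call lost in 10 of 19 alternatives (adjusted p of 0.0555 to 0.116), after which 2 of 4 were called lower. The 6AN values of both *CLOCK* and *NPAS2* lay below all DMSO values. *ARNTL*, the gene of BMAL1 (chr11:13277727-13387265), was 5.45, 7.55 and 11.1 in DMSO and 3.35, 8.20 and 12.8 in 6AN, a difference of -0.08 ± 0.35 (95% interval -0.91 to 0.76, limma, adjusted p = 0.875). Its curves crossed: in DMSO it was highest at 12 hr and lowest at 20 hr, and in 6AN lowest at 8 hr and highest at 20 hr. At single times its log2 difference ranged from -1.40 at 12 hr to 1.10 at 20 hr.

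*PER1* (chr17:8140470-8152435) was 11.95, 15.6 and 19.5 in DMSO and 23.4, 29.3 and 46.8 in 6AN, a rise of 1.02 ± 0.19 (limma, adjusted p = 0.00353) with no overlap. *CRY2* rose by 0.73 ± 0.12, from 4.50, 5.47 and 6.38 to 7.93, 9.37 and 12.7. Of the other three, *PER2* (0.54, adjusted p = 0.0644), *CRY1* (0.53, adjusted p = 0.0571) and *PER3* (0.24, adjusted p = 0.484) were not called, although 4 of the 5 were called higher in place of 2 without the replicate block or without small RNA loci. The REV-ERB alpha gene *NR1D1* was 9.34, 14.6 and 19.4 in DMSO and 16.5, 26.5 and 44.7 in 6AN, higher at 5 of 6 time points (0.86 ± 0.27, limma, adjusted p = 0.0338), and the groups overlapped. That call was lost without the pair at 0, 4, 8 or 12 hr (adjusted p of 0.0665 to 0.0974) and with robust variances (0.0667). *RORA* (0.79) and *RORB* (0.67), whose products activate *ARNTL*, rose, and *NR1D2* had 0.41 (adjusted p = 0.125).

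The DEC repressor genes moved apart. *BHLHE40* rose from 53.4, 59.7 and 74.4 to 83.4, 92.5 and 113 (0.67 ± 0.08). *BHLHE41* (chr12:26120026-26125070) fell from 22.01, 24.8 and 29.6 to 5.33, 7.44 and 9.33 (-1.66 ± 0.08, limma, adjusted p = 2.24e-05). Neither overlapped between groups. *NFIL3* had 0.47, a call lost in 9 of 19 alternatives (adjusted p of 0.052 to 0.115), and 0.30 without the pair at 20 hr, and *DBP* (0.53) and *TEF* (0.35) were not called. Of 8 clock kinases and ligases *CSNK1E* (0.41), *FBXW11* (0.26) and *CSNK1D* (0.20) rose and 0 fell. The E-box CACGTG, the site of BMAL1 with CLOCK and of the DEC factors, was in 5 of the 17 clock-gene promoters, beside 7.73% of all symbols. Of these 5 genes 2 rose and 1 fell. The windows of the 2 with the largest differences, which moved in opposite directions, are shown with the E-box in capitals. They are *BHLHE41* at chr12:26125048-26125117 (minus strand) and *PER1* at chr17:8152540-8152609 (minus strand).
BHLHE41: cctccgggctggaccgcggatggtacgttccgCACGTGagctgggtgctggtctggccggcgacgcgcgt
PER1: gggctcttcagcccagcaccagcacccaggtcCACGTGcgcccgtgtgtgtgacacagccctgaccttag

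**Figure D4:**
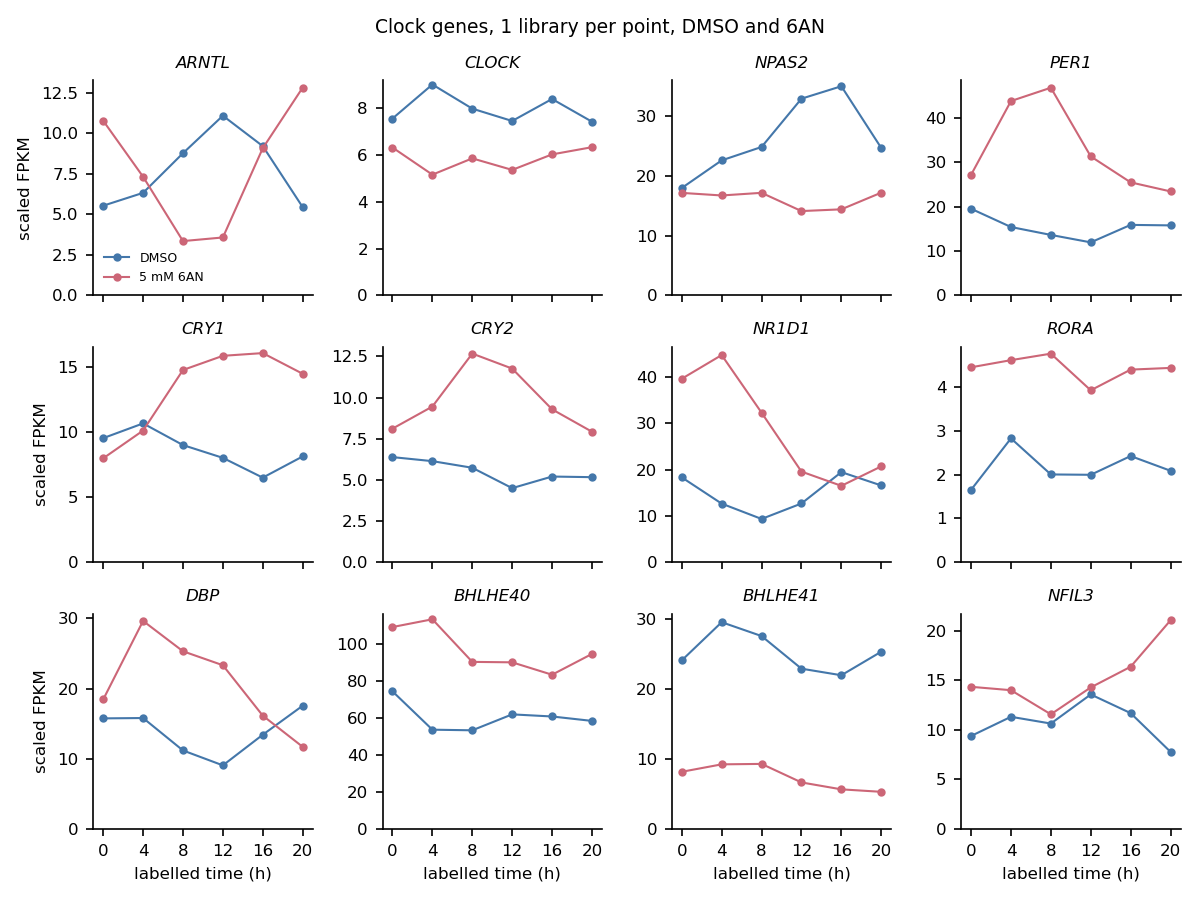
Scaled FPKM (vertical axes) against labelled time in hours (horizontal axes) for 12 clock genes; each point is 1 library, with DMSO in blue and 5 mM 6AN in red. *PER1*, *CRY2*, *RORA* and *BHLHE40* lie higher with 6AN and *CLOCK*, *NPAS2* and *BHLHE41* lower at all 6 time points, and the curves of *ARNTL* cross.

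Genes of DNA replication fell almost as a whole: 40 of 41 were called lower, with a median of -0.73, and the licensing factor *CDT1* had 0.21, called higher but not in 9 of 19 alternatives (adjusted p of 0.0527 to 0.133). *UHRF1*, which maintains DNA methylation (chr19:4903080-4962154), was 32.7, 34.6 and 36.1 in DMSO and 9.42, 12.04 and 13.03 in 6AN, a difference of -1.50 ± 0.07 (limma, adjusted p = 1.79e-05). The ribonucleotide reductase subunit *RRM2* was 63.6, 73.4 and 80.3 in DMSO and 20.8, 26.1 and 31.2 in 6AN (-1.48 ± 0.08). For both genes all 6AN values lay below all DMSO values. *CCNE2* (-1.23), *FEN1* (-1.22), *TYMS* (-0.92) and the clamp *PCNA* (-0.78) fell, as did *GINS2* (-1.17). The E2F letters TTTNNCGC, on either strand, were in 16 of the 35 promoters found, beside 7.14% of all symbols; 15 of the 16 genes were called lower and 1 higher. The windows of the 2 with the largest fall are shown with the matches in capitals, *UHRF1* at chr19:4909357-4909500 (plus strand) and *GINS2* at chr16:85688955-85689017 (minus strand).
UHRF1: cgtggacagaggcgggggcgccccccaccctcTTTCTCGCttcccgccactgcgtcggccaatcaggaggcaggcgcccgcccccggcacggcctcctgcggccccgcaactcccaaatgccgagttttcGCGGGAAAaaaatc
GINS2: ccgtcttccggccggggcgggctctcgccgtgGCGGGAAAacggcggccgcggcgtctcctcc

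Of 30 mitotic genes 26 were called lower and 0 higher, with a median of -0.45. *CDK1*, the mitotic kinase, was 46.1, 55.3 and 79.7 in DMSO and 26.9, 34.7 and 48.3 in 6AN (-0.67 ± 0.10, limma, adjusted p = 0.00143), lower at all 6 time points although the ranges overlapped. *NUSAP1* (-0.74), *BIRC5* (-0.72), *DLGAP5* (-0.68), *PTTG1* (-0.32) and *CDC20* (-0.25) fell, the last with its call lost in 12 of 19 alternatives (adjusted p of 0.0522 to 0.287), and *PLK1* (-0.31), *TTK* (-0.25), *CCNB2* (-0.21) and *NEK2* (-0.02) were not called. The CHR element TTTGAA, through which cell cycle genes are repressed, was in 15 of 25 promoters, beside 16.1% of all symbols, and 13 of these 15 genes fell. The windows of *DLGAP5*, chr14:55191657-55191755 (minus strand), and *CDK1*, chr10:60778138-60778207 (plus strand), which had the largest falls among the 15, carry the matches in capitals.
DLGAP5: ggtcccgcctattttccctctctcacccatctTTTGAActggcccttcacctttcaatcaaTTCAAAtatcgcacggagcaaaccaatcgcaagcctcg
CDK1: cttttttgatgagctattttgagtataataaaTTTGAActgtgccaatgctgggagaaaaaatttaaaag

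Of 20 p53 targets, 6 rose (30%) and 3 fell (15%), with a median of 0.01. *CCNG1* (0.61), *BBC3* (0.51) and *TP53INP1* (0.43) rose, *DDB2* (-0.41) fell, and *CDKN1A*, the p21 inhibitor of cyclin-dependent kinases, was 105, 124 and 145 in DMSO and 111, 126 and 163 in 6AN (0.05, limma, adjusted p = 0.488). Of 15 regulators of cell death 3 rose (20%) and 4 fell (26.7%), shares near those over all loci. *HRK* (1.004), *BBC3* and *BCL2* (0.50) rose and *BIRC3* (-0.67), *PMAIP1* (-0.59), *BIK* (-0.54, a call lost in 9 of 18 alternatives) and *BAK1* (-0.28) fell, and without small RNA loci 5 were called higher. Of 17 nucleotide synthesis genes 6 fell (35.3%), led by *PAICS* (-0.68), and *IMPDH2* (0.38) and *ADSS* (0.29) rose (11.8%). Of 25 loci of clustered histones 5 rose (20%), of which *HIST1H4H* had 0.62, and 3 fell (12%), of which *HIST4H4* had -0.99. Both shares are below the 21.7% and 27.5% over all loci. The histone genes share reads with near-identical copies, and without the pair at 12 hr only 2 rises and 1 fall were called.

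The mRNA of most lipid synthesis genes was lower, and lipid synthesis itself was not measured. Of 22 cholesterol genes 19 fell and 0 rose, with a median of -0.42. The falls called were 14 with no filter or no replicate block, and 15 or 16 with 1 time pair left out. In the later cycle 8 were called lower, with a median of -0.16, beside a median of 0.001 over all loci tested. There 7473 of the 13844 loci were called in either direction, and the share called lower is not given here. The sterol isomerase *EBP* was 38.1, 48.7 and 59.3 in DMSO and 18.2, 20.5 and 25.3 in 6AN (-1.15 ± 0.13, limma, adjusted p = 0.000405), and *ACAT2* (-1.05), *HMGCS1* (-0.89) and *FDPS* (-0.88) fell. Of 10 fatty acid genes 9 fell and *ACSS2* had 0.08, with a median of -0.57. The desaturase *FADS2* was 72.4, 95.5 and 108 in DMSO and 24.1, 30.8 and 35.1 in 6AN (-1.60 ± 0.08, limma, adjusted p = 1.92e-05). The stearoyl-CoA desaturase *SCD* (-1.09), the elongase *ELOVL6* (-0.99) and their activator *SREBF1* (-1.11) fell by similar amounts, and neither *EBP* nor *FADS2* overlapped between groups.

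Protein folding and degradation genes were also lower. Of 20 genes of the endoplasmic reticulum 11 fell, and *ERN1* (0.78), *DNAJB9* (0.40), *HERPUD1* (0.31) and *EDEM1* (0.19) rose, with 2 rises called without the pair at 4 or at 8 hr. Calreticulin (*CALR*) was 647, 692 and 784 in DMSO and 377, 419 and 498 in 6AN (-0.73 ± 0.07, limma, adjusted p = 0.000194), *CRELD2* had -0.76 and *SDF2L1* had -0.67. *HSP90B1* (-0.78, adjusted p = 0.0795), whose locus holds *MIR3652*, was not called. The endoplasmic reticulum stress element, CCAAT and CCACG 9 bases apart, was in 7 of 19 promoters on either strand, beside 0.0916% of all symbols, and 5 of the 7 genes fell and 0 rose. It is shown in capitals for *CRELD2*, chr22:49918522-49918604 (plus strand), and *CALR*, chr19:12938359-12938434 (plus strand), which had the largest falls of the 7 that were called.
CRELD2: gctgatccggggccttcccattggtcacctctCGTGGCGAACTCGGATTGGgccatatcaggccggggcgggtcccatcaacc
CALR: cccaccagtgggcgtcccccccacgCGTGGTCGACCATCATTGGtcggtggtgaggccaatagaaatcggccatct

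Of 14 heat shock chaperones 10 fell and *HSF1* rose (0.51), with a median of -0.41; the small chaperone *HSPB1* and *HSPE1*, whose locus is merged with *MOB4*, each had -0.83, *DNAJB1* had -0.56 and *HSP90AB1* had -0.43. Of 37 proteasome subunits 31 fell and 0 rose, with a median of -0.35, among them *PSMB8* (-0.74), of the immunoproteasome, *PSMA3* (-0.65), *PSMC3* (-0.62) and *PSMD1* (-0.61). Of 77 nuclear subunits of oxidative phosphorylation 50 fell and *ATP5S* (0.52), *NDUFA10* (0.17) and *NDUFV1* (0.09, a call lost in 10 of 19 alternatives) rose, with a median of -0.23; with upper quartile scaling 47 fell and 6 rose. *ATP5G1* (-0.62), *ATP5J* (-0.59), *COX7B* (-0.57) and *NDUFB3* (-0.57) had the lowest values. Mitochondrial ribosomal proteins had 29 falls and 7 rises among 77, with a median of -0.12. Cytosolic ribosomal proteins went the other way: 69 of 81 rose and *RPS27L*, a p53-inducible paralog, fell (-0.37), with a median of 0.30. *RPL3* was 1663, 1818 and 1967 in DMSO and 2483, 2591 and 2836 in 6AN (0.55 ± 0.04, limma, adjusted p = 5.08e-05), without overlap, and *RPL13* (0.59) and *RPL28* (0.86, merged with *MIR6805*) also rose.

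The difference was also tested for drift through the cycle, and 0 loci (0%) were called for a straight-line change of the difference over the 6 time points. At an unadjusted p under 0.05 there were 1371, and the smallest adjusted p was 0.376. *DDIT4*, an inhibitor of mTORC1 that is not among the calls, went from 31.5 at 0 hr to 73.9 at 20 hr with 6AN and stayed between 50.5 and 59.4 in DMSO, a slope of 0.21 ± 0.02 per 4 hr (limma, unadjusted p = 9.27e-05). The smallest p for a rising difference were those of *DLGAP1-AS2* (0.25 per 4 hr), *DDIT4*, *SUN3* (0.24), *MAPK11* (0.24) and *TRIB3* (0.20), and for a falling one those of *HIST1H2AC* (-0.15), *SERPINA1* (-0.28), *MYBL2* (-0.17), *WT1-AS* (-0.26) and *LOC100505915* (-0.20).

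The same comparison was made in the 12 libraries labelled 24 to 44 hr. These share no library with the 12 above but come from the same experiment. The sign was the same for 6434 of the 6809 called loci (94.5%), beside 66.8% of the loci not called at 0 to 20 hr. In the later cycle 7473 of the 13844 loci tested were called. The call was the same for 5174 of the 6809 (76.0%), which is 69.2% of the 7473. Of the 6809, 49 were called in the opposite direction. The difference between the cycles was called for 1090 loci (7.87% of those tested), of which 592 were higher and 498 lower in the later cycle; without scaling the numbers were 427 and 558. In the mitosis list 30 of 30 genes differed, all lower in the later cycle, where the median was -1.19, and in DNA replication 19 of 41 differed, all lower, with a later median of -1.12. In the p53 list 9 of 20 differed, all higher. Of these 20 targets, 18 were called higher in the later cycle against 6 in the earlier one. The counts of 18 and 6 have different backgrounds, with 7473 loci called in either direction in the later cycle and 6809 in the earlier. The share of all loci called higher in the later cycle is not given here. The count of 1090 fell to 642 without the pair at 0 hr, 670 without 4 hr, 687 without 36 hr and 701 without 44 hr.

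*MGP* was higher with 6AN mainly in the earlier cycle, by 2.76 there and 0.42 later (difference -2.34, limma, adjusted p = 0.000741). *CHAC1* fell back from 1.79 to 0.71 and *TXNIP* from 2.58 to 1.59, both with a called difference. *CDKN1A* went from 0.05 to 0.49, and *SERPINA1*, which encodes alpha-1 antitrypsin, from -1.41 to -2.85. The smallest p for a larger later value included those of *ASS1* (0.23 to 0.76), *RPL6* (0.22 to 0.54), *ARHGAP23* (0.65 to 1.20) and *FKBP9* (0.19 to 0.89), and for a smaller one *FOXM1* (-0.19 to -0.97), *CHTF18* (0.42 to -0.41), *KIAA0101* (-0.51 to -1.33), *PRC1* (-0.47 to -1.31) and *HMMR* (-0.37 to -1.13). Of these, *FOXM1* activates the mitotic genes and *PRC1* and *HMMR* act on the spindle.

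**Figure D5:**
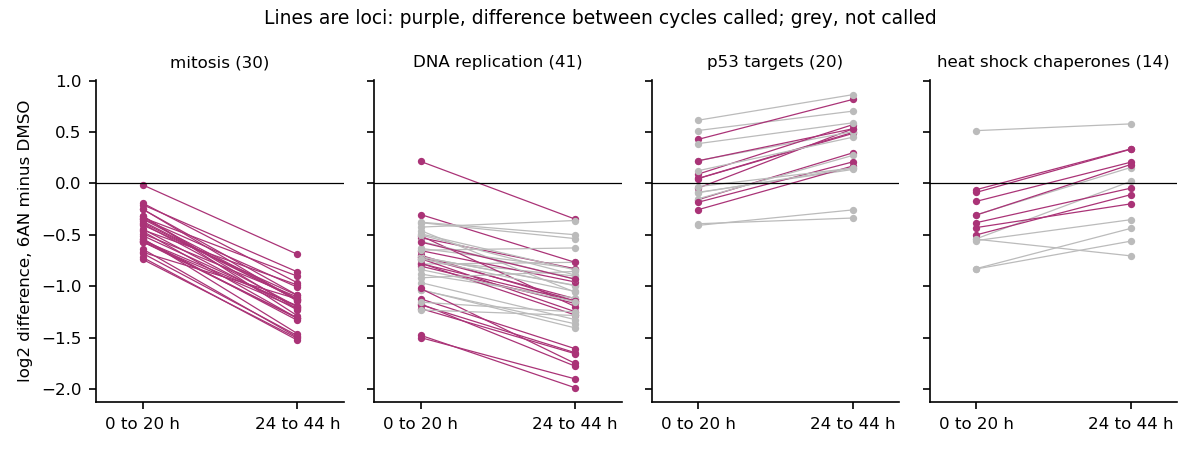
Log2 difference, 6AN minus DMSO (vertical axis), in the libraries labelled 0 to 20 hr and 24 to 44 hr (horizontal axis) for 4 gene lists; each line is 1 locus, purple where the difference between cycles was called and grey where it was not. All 30 mitosis lines are purple and go down, and those of p53 targets that are purple, 9 of 20, go up.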

How the data were processed

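*Bmal1*:*luc* U2OS cells given 6AN or DMSO were profiled by RNA-seq at 12 labelled times and by ChIP-seq. The authors deposited FPKM per locus of a merged annotation on hg38, in 1 table per condition normalized across its own libraries, and the signal of HOMER at shared BMAL1/CLOCK sites; the submitters' processing notes name Bowtie, TopHat, Cufflinks, Bowtie2 and HOMER, with no versions. Peak scores the authors deposited were not used. RNA was extracted in triplicate per the study's methods, and whether extracts were pooled is not given in the sources used here. Libraries are labelled 0 to 44 hr, whereas the time axes of the study's plots begin at 24 hr after synchronization; hours are given as labelled. All per-sample columns matched a sample, so 0 were left out.

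FPKM were divided by the library's median over tested loci relative to the mean of these medians (factors of 0.994 to 1.017 in DMSO and 0.975 to 1.015 in 6AN), and log2(value + 1) was fitted with limma 3.58.1 in R 4.3.3 (trended empirical Bayes, time as a block, two-sided), after a test on simulated data. The change over time and the difference between cycles were terms of the same kind of fit. Python 3.11.15, NumPy 2.4.6, pandas 2.3.3 and matplotlib 3.10.9 were used for the rest. Alternatives were pseudocounts of 0.1 and 5, a mean FPKM of at least 5 or no filter, other scalings, no block, other variance models, loci left out and each time pair left out. Small RNA loci were recognised by their names (625 tested). They had a median SD of the 6 differences of 3.32, beside 0.173 for the others, and are counted but not described. The name of *SNAR-E* did not match, so this RNA was kept among the largest falls.

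Named genes were the 12 largest rises and 12 largest falls (1 symbol, the same sign at 6 of 6 time points, mean of at least 5 FPKM in the higher group), members of the clock, pentose phosphate, NADPH, NRF2 and stress response lists, in other lists up to 4 called members with the largest differences and 2 with the highest mean, the 5 smallest p in each direction of the time and cycle terms, and genes the study names. Members outside this rule, named beside counts of 5 or fewer or beside a sequence, were chosen after their values were seen. Some items withheld from the text are not reported here. The lists and members were chosen with earlier results of these data known. Promoters were matched by symbol in a RefSeq table, and each motif was searched by itself, so that matches may overlap. None of the 13 mitochondrially encoded genes was among the loci tested.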

Additional observations from a re-analysis of the deposited data

Results flagged for a closer look

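In groups of 6 libraries, 5 of 86 examined (43 genes in both conditions) held a library far from the rest by Dixon's test, which chance gives in about 1 in 20. With 6AN these were the libraries at 20 hr for *MMP10* (39.8 FPKM, beside 30.1 for the next), *GSR* (41.5) and *HMOX1* (33.5). With DMSO they were *TXNIP* at 8 hr (21.5) and *NQO1* at 0 hr (59.6).

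The difference between 6AN and DMSO differed between cycles, by the interaction term in limma at an adjusted p of at most 0.05, for these genes with values by library. On the log2 scale, later minus earlier, it was -2.34 for *MGP*, -1.44 for *SERPINA1*, -1.08 for *CHAC1*, -0.98 for *TXNIP*, -0.85 for *ESM1*, -0.77 for *MMP10*, -0.64 for *COL1A1*, -0.63 for *ARRDC4*, -0.63 for *BHLHE41*, -0.51 for *RRM2*, -0.45 for *CDK1* and -0.40 for *UHRF1*. It was 0.72 for *ANKRD1*, 0.69 for *TRIB3*, 0.46 for *CALR*, 0.44 for *CDKN1A* and 0.32 for *NQO1*. Values of *MGP*, *CHAC1* and *TXNIP* were thus closer to DMSO in the later cycle, and those of *COL1A1*, *BHLHE41* and *SERPINA1* farther below it.

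By list, 30 of 30 mitosis loci, 19 of 41 DNA replication loci, 9 of 20 p53 targets, 7 of 14 heat shock chaperones and 47 of 81 cytosolic ribosomal proteins differed between cycles, beside 1090 of 13844 loci in all (7.87%). The mitosis and replication loci were all lower in the later cycle and the p53, heat shock and ribosomal loci all higher.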

How the results depend on the processing

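The count of 6809 called loci stayed within 1.5 times under every alternative run: 6868 and 6805 with pseudocounts of 0.1 and 5, 5569 of 9993 with a mean of at least 5 FPKM, 6636 of 21818 with no filter, 6929 without scaling, 6765 with upper quartile and 6816 with ratio scaling, 6759 without the variance trend, 6909 with robust variances, 7118 of 13219 without small RNA loci, 6656 without loci of several symbols, and 5982 to 6270 with each time pair left out. An adjusted p of at most 0.01 left 4705, and 6356 loci had 6 differences of 1 sign, the exact sign-flip result with its smallest p of 0.03125. Without the replicate block, 6614 were called. The share of calls that were higher was 44.1%, 40.05% without scaling, 49.5% with upper quartile scaling and 50.4% with no filter. The count of 0 for a change over time held in every alternative run, with the smallest adjusted p at 0.0962 without small RNA loci, an alternative chosen after seeing the data, as was that for the cycle term (1202 called). For the difference between cycles, 985 were called without scaling and 642 to 1142 with each time pair left out. Of 824 named entries, 774 kept direction and call without the replicate block, 41 lost the call and 9 gained it; with 1 pair left out 37 to 52 lost it and 2 to 17 gained it, and 0 reversed in any alternative. Of genes given a value above without this limit, *COL6A2*, *HIST1H2AC* and *LOC100505915* each lost the call in 6 of 19 alternatives, *ALPL* in 5, and *DNAJB9* and *TKT* in 4. Some list members that are counted above but not named lost it more often. Examples are *PSMD3* in 13 of 19, *PSMB4*, *LSS* and *MRPL51* each in 12 and *COL6A3* in 11. Medians of the NRF2, p53, immediate early and inflammatory lists lay near 0 and changed sign with the scaling. FPKM carry no absolute depth, so counting error could not be given.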

Other observations

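The deposited ChIP-seq list of shared BMAL1/CLOCK sites under 6AN holds 439 sites assigned to 414 genes, of which 334 were on tested loci. Of these loci 126 rose (37.7%) and 85 fell (25.4%), with a median log2 difference of 0.09, beside 21.7% and 27.5% over all loci tested. For the 223 sites within 1000 bp of a start site, 72 of 206 loci rose (34.95%) and 47 fell (22.8%). There was 1 ChIP library per antibody and condition, so these are values with no test. At the site nearest the start of *NR1D1*, CLOCK signal was 103 in DMSO and 246 in 6AN, and BMAL1 signal 86.4 and 105. Signal of the input control there was also higher with 6AN (7.66 and 11.9). At the site of *TXNIP*, at -64 bp from the start, CLOCK was 38.0 and 56.0, BMAL1 32.2 and 34.8, H3K9ac 63.9 and 136, and input 12.3 and 9.84. The sites come from a list made under 6AN, so a higher 6AN signal is partly set by that choice. CLOCK signal was also higher with 6AN near the start of *BHLHE41*, which fell (25.7 and 59.3, with input at 4.66 and 7.25). It was lower near *RN7SK*, which was not called (69.9 and 63.7, with input at 17.9 and 13.99).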
